A study of Mus musculus with 2 samples.

Results

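The 10 genes described here are secreted ligands and extracellular or membrane-bound inhibitors of the bone morphogenetic protein (BMP) pathway: the ligands Gdf10, Bmp2, Bmp3, Bmp4, Bmp5 and Bmp6, the antagonists Grem1, Chrdl1 and Fst, and the pseudoreceptor Bambi. They were taken as a named list out of 27998 genes in the files, and the rule set no limit on a measured level. Their unique molecular identifiers (UMIs, 1 per captured RNA molecule) were summed over the cells of each class in each tissue and over fibro-adipogenic progenitors (FAPs), the fibroblast-like stromal cells of muscle, defined as barcodes with at least 1 UMI of Pdgfra and at least 50 UMIs of Dcn. This gate held 2339 of 5159 barcodes in quadriceps and 2010 of 2499 in diaphragm.

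BMP ligands bind pairs of type I and type II serine/threonine kinase receptors, which phosphorylate SMAD1, SMAD5 and SMAD9, and these act with SMAD4 on target genes such as the Id genes. Antagonists hold the ligands outside the cell, whereas BAMBI sits in the membrane without a kinase domain and takes receptors out of action. In skeletal muscle the pathway is known for its part in muscle growth and in the control of satellite cells, the muscle stem cells, and in FAPs it is known for bone formation at ectopic sites.

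The data were 2 droplet libraries of mononuclear cells, 1 from the quadriceps, a limb muscle, and 1 from the diaphragm, the respiratory muscle, of C57BL/6J mice with no treatment named. A total of 10 mice were used, and the cells of several animals were combined within each tissue before sequencing, so that neither tissue had a replicate. Tissue was digested with collagenase and dispase, the cells were taken from a density gradient, and viable cells were sorted on light scatter alone, so that muscle fibres were not part of the sample. Every difference given here is therefore between 2 libraries, no test across animals was possible, and intervals are exact 95% intervals that cover counting error only.

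Levels are given as CPM, the UMIs of a gene scaled to a total of 1000000 UMIs of the cell group. The quadriceps library held 50854519 UMIs and the diaphragm library 28545242 UMIs, of which 26559263 and 25965824 lay in FAPs. FAPs had a median depth of 10782 UMIs (quadriceps) and 12576 UMIs (diaphragm), and 24.4% and 21.9% of FAPs had over 5% mitochondrial UMIs. The gated cells carried the markers of their label: all 8 listed FAP markers were detected in both tissues and together reached 69965 CPM in quadriceps and 66259 CPM in diaphragm. Smooth muscle markers, all 7 detected, stood at 2136 CPM in quadriceps FAPs and 86.7 CPM in diaphragm FAPs, and a subcluster of 55 quadriceps FAPs led by Tagln and Myh11 had a median of 23918 UMIs. Tenocyte markers stood at 559 CPM and 1693 CPM, with all 7 detected in both tissues, and mesothelial markers at 7.27 CPM, with 3 of 6 at 0, and 109 CPM, with all 6 detected. The 9 immediate early genes, such as Fos, summed to 2353 CPM in quadriceps FAPs and 13882 CPM in diaphragm FAPs. The part of these gene groups in the tissue differences below was not tested. The libraries shared 5 barcodes.

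The first comparison asked which cells of the muscles carry these transcripts. Gdf10, Bmp4, Bmp5 and Fst were at least 2-fold higher in FAPs than in all other cells in both tissues, which were 4 of the 5 members that reached 20 CPM in the higher group of each tissue. Over all 6332 genes that passed the same limit, 8.69% were called higher in FAPs in this way. None of the members was called lower in FAPs in both tissues, a call made for 6.62% of genes. A gene was called when log2(CPM + 1) differed by at least 1 and the higher group had at least 20 CPM.

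**Figure D1:**
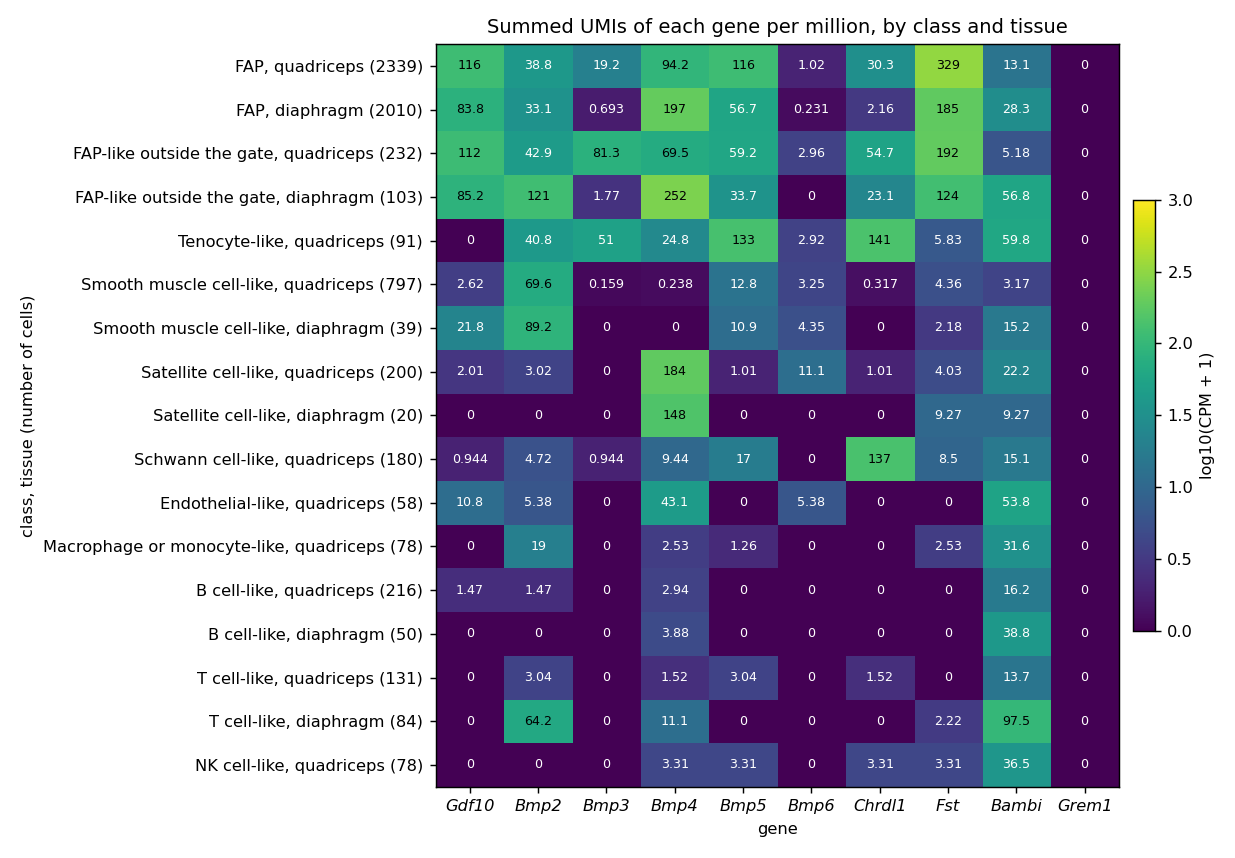
Level of each member (CPM), for each named class with at least 20 cells in a tissue. Rows are classes and tissues with the number of cells, columns are genes, and the colour is log10(CPM + 1) with the CPM printed in each field. Fst, Gdf10 and Bmp5 were high in the FAP rows, Bmp2 also in smooth muscle cell-like cells, Bmp4 also in satellite cell-like cells, and Chrdl1 in tenocyte-like and Schwann cell-like cells of quadriceps.

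Gdf10, Bmp5 and Bmp4 carried most of the ligand UMIs of FAPs. Gdf10 (BMP3B), a divergent family member that is related to BMP3, was counted at 3072 UMIs in FAPs of quadriceps and at 2176 in those of diaphragm. Bmp5, a ligand of the group that activates SMAD1, SMAD5 and SMAD9, had 3077 and 1473 UMIs. Bmp4, of the same signalling class as Bmp2, had 2502 and 5114 UMIs. These 3 genes differed in where within FAPs they were found and in which tissue they were higher, and for that reason the 250 bases before their annotated starts are printed here. The sequences are RefSeq windows on GRCm38.p6, 5′ to 3′ on the strand of the gene, and capitals mark the letters CAGAC on either strand, the short element that SMAD proteins are known to bind.
Gdf10, chr14:33923337-33923586, plus strand: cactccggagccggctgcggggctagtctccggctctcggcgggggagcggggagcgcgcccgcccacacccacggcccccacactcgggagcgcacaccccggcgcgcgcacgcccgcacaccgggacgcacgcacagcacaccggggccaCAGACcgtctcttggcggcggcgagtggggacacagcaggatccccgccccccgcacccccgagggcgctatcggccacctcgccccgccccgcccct
Bmp4, chr14:46390670-46390919, minus strand: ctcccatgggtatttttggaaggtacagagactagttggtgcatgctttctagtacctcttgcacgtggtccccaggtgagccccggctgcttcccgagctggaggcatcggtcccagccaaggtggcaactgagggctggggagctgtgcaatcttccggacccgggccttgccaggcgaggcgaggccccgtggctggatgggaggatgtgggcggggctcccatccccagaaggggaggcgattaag
Bmp5, chr9:75775115-75775364, plus strand: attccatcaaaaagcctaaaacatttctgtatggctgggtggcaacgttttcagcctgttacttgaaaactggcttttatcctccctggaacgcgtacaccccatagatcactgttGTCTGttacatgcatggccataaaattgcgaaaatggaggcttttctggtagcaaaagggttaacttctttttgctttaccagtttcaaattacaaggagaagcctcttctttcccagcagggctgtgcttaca
CAGAC was found once in the Gdf10 window, once in the Bmp5 window and not in the Bmp4 window, and it occurs in 42.2% of all 32851 such windows. The longer element GGCGCC, present in 9.59% of windows, and the AP-1 letters TGANTCA, present in 6.75%, were not found in these 3 windows on either strand. GC content was 78.8% for Gdf10, 63.2% for Bmp4 and 42.8% for Bmp5. The letters are a description of the sequence, and binding was not measured.

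Gdf10 lies on chromosome 14 (33923587 to 33937983, plus strand, GRCm38, GENCODE M21). Its level in FAPs was 116 CPM (95% interval 112 to 119.8) in quadriceps and 83.8 CPM (80.3 to 87.4) in diaphragm. FAP-like cells outside the gate, which missed the Pdgfra or Dcn minimum, had much the same levels, 112 CPM and 85.2 CPM. Among the named classes outside the FAP lineage Gdf10 was low: smooth muscle cell-like cells had 2.62 CPM in quadriceps and 21.8 CPM in diaphragm, the latter from 10 UMIs, and endothelial-like cells of quadriceps had 10.8 CPM. Against all other cells Gdf10 was 10.2-fold higher in quadriceps FAPs (8.999 to 11.6) and 2.46-fold higher in diaphragm FAPs (1.98 to 3.08). The diaphragm fold on the log2 scale was 1.27 from summed UMIs and 0.76 from the mean of per-cell CPM, so that the call did not hold with equal weight per cell. Other diaphragm cells outside the gate included 103 FAP-like cells, and with named classes outside the FAP lineage alone as the comparison the log2 fold was 3.47.

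Bmp4, also on chromosome 14 (46383520 to 46390669, minus strand), stood at 94.2 CPM (90.5 to 98.0) in quadriceps FAPs and 197 CPM (192 to 202) in diaphragm FAPs. Satellite cell-like cells, the muscle stem cell class, were the other named class with high Bmp4, at 184 CPM (159 to 213) from 183 UMIs in 200 quadriceps cells and 148 CPM from 16 UMIs in 20 diaphragm cells. In quadriceps the satellite cell-like level was above the FAP level, whereas in diaphragm the FAP level was 1.33 times the satellite cell-like level with an interval (0.817 to 2.32) that includes 1. Smooth muscle cell-like cells had 0.238 CPM in quadriceps and no UMI in diaphragm. FAPs were above all other cells by 6.63-fold in quadriceps (5.93 to 7.45) and 2.20-fold in diaphragm (1.93 to 2.52). The diaphragm log2 fold of 1.13 was 0.50 when barcodes over 5% mitochondrial UMIs were left out and -0.15 when cells of FAP-like clusters, which leave out FAPs of the diaphragm, replaced the gate.

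Bmp5, on chromosome 9 (75775364 to 75900310, plus strand), overlaps the annotated gene Gm47723 on its own strand. How reads of the shared stretch were counted was not examined. In quadriceps FAPs it stood at 116 CPM (112 to 120.02) and in diaphragm FAPs at 56.7 CPM (53.9 to 59.7). Tenocyte-like cells, a class of tendon cells that was found in quadriceps, had 133 CPM from 91 UMIs, and the ratio to FAPs of 1.15 had an interval (0.919 to 1.41) that includes 1. Schwann cell-like cells followed with 17.0 CPM and smooth muscle cell-like cells with 12.8 CPM in quadriceps and 10.9 CPM in diaphragm. FAPs exceeded all other cells by 6.67-fold in quadriceps (6.02 to 7.40) and 4.57-fold in diaphragm (3.22 to 6.71). The diaphragm log2 fold of 2.11 was past the limit in 7 of 8 alternatives, with a lowest value of 0.79.

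Bmp2, on chromosome 2 (133552159 to 133562885, plus strand), was highest in vessel wall cells among the named classes of quadriceps. Smooth muscle cell-like cells had 69.6 CPM from 877 UMIs in 797 quadriceps cells and 89.2 CPM from 41 UMIs in 39 diaphragm cells. FAPs had 38.8 CPM (36.5 to 41.3) in quadriceps and 33.1 CPM (30.9 to 35.4) in diaphragm, and FAP-like cells outside the gate had 42.9 CPM and 121 CPM. The diaphragm FAP-like cells and smooth muscle cell-like cells were next to each other in the order, and their ratio of 1.35 had an interval (0.905 to 2.04) that includes 1. Satellite cell-like, Schwann cell-like and endothelial-like cells of quadriceps had between 3.02 and 5.38 CPM. T cell-like cells of diaphragm had 64.2 CPM, but of their 29 UMIs 21 came from 1 cell. Against all other cells Bmp2 in FAPs stood at a ratio of 0.776 in quadriceps (0.714 to 0.844) and 0.464 in diaphragm (0.396 to 0.547). The quadriceps direction held in 5 of 8 alternatives, with log2 differences up to 0.92. The diaphragm value was past 2-fold but turned to a log2 difference of 0.26 when cells of FAP-like clusters replaced the gate.

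Bmp3, on chromosome 5 (98854415 to 98884396, plus strand), encodes a divergent ligand that is known to oppose other BMPs in bone. The whole quadriceps library held 661 UMIs of Bmp3 and the whole diaphragm library, with fewer UMIs in all, held 20. Cell groups with much Bmp3 in quadriceps were few or missing in diaphragm. The tenocyte-like class had no diaphragm cells. A FAP subcluster led by Dmkn, described below, had 254 quadriceps FAPs and 7 diaphragm FAPs. FAP-like cells outside the gate had 81.3 CPM, tenocyte-like cells 51.0 CPM and FAPs 19.2 CPM (17.5 to 20.9) in quadriceps, each apart from the next beyond the counting interval. In diaphragm FAPs it stood at 0.693 CPM (0.411 to 1.10), and FAP-like cells outside the gate had 1 UMI. Since its FAP level was under 20 CPM in both tissues, Bmp3 was not among the members that could be called.

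Bmp6, on chromosome 13 (38345107 to 38500302, plus strand), known from the liver for its control of iron balance, was near the limit of detection. The quadriceps library held 91 UMIs and the diaphragm library 8. FAPs had 1.02 CPM (0.670 to 1.48) and 0.231 CPM (0.0848 to 0.503), satellite cell-like cells of quadriceps had 11.1 CPM from 11 UMIs and smooth muscle cell-like cells 3.25 CPM from 41 UMIs.

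The antagonist Fst (follistatin), on chromosome 13 (114452290 to 114458951, minus strand), binds activins and, less tightly, BMPs. With 8732 UMIs in quadriceps FAPs and 4795 in diaphragm FAPs it had the most UMIs of the members in quadriceps and the most after Bmp4 in diaphragm. The level was 329 CPM (322 to 336) in quadriceps FAPs and 185 CPM (179 to 189.97) in diaphragm FAPs. In no named class outside the FAP lineage with at least 20 cells did Fst pass 9.27 CPM, the value of 1 UMI in satellite cell-like cells of diaphragm. FAPs exceeded all other cells by 19.2-fold in quadriceps (17.4 to 21.2) and 3.13-fold in diaphragm (2.67 to 3.71). In diaphragm the log2 fold of 1.63 was 0.92 when barcodes over 5% mitochondrial UMIs were left out and 5.67 against named classes outside the FAP lineage. Over 8 alternatives its lowest value was 0.17, and it was past the limit in 6.

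Chrdl1, on the X chromosome (143285674 to 143394262, minus strand), encodes a chordin-like protein that binds BMP4. It was highest in tenocyte-like cells, at 141 CPM from 97 UMIs, and in Schwann cell-like cells, the myelinating glia of nerve, at 137 CPM from 145 UMIs, both in quadriceps, and these levels had a ratio of 1.03 (0.790 to 1.35). FAP-like cells outside the gate followed with 54.7 CPM and FAPs with 30.3 CPM (28.2 to 32.4). Diaphragm FAPs had 2.16 CPM (1.63 to 2.80), and 13 UMIs gave 23.1 CPM in the FAP-like cells outside the gate.

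Grem1, on chromosome 2 (113746164 to 113758646, minus strand), encodes gremlin, an antagonist of BMP2 and BMP4. Not a single UMI was counted in either library. The upper limit for 0 UMIs was 0.139 CPM in quadriceps FAPs and 0.142 CPM in diaphragm FAPs by the exact Poisson interval. A count of 0 in all cells cannot be told apart from a transcript whose reads were not assigned to the gene.

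The pseudoreceptor Bambi was spread over many classes at low counts. Tenocyte-like cells had 59.8 CPM from 41 UMIs and endothelial-like cells 53.8 CPM from 10 UMIs in quadriceps, while FAPs had 13.1 CPM (11.8 to 14.6). FAPs of diaphragm had 28.3 CPM (26.3 to 30.4), B cell-like cells of the same library 38.8 CPM and T cell-like cells 97.5 CPM, of whose 44 UMIs 33 came from 1 cell. B, T and NK cell-like cells of quadriceps had 16.2, 13.7 and 36.5 CPM. The FAP level was thus no higher than that of B and T cell-like cells within either tissue, although the diaphragm T cell-like level rested mostly on 1 cell.

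The share of cells with a UMI followed the levels for the abundant members. With every cell thinned to 1000 UMIs, Fst was found in 21.6% of quadriceps FAPs (19.9% to 23.3%) and 14.2% of diaphragm FAPs (12.7% to 15.8%), and without thinning in 62.5% and 56.4%. Bmp4 was found in 8.51% and 17.3% of thinned FAPs and in 49.3% and 75.0% of unthinned FAPs. Bmp5 went the other way, with 11.2% and 5.37% of thinned FAPs. B, T and NK cell-like cells were taken as a class that lacks these genes. They had a median of 3532 UMIs in quadriceps and 4963 UMIs in diaphragm. Their thinned shares of Gdf10, Bmp4, Bmp5 and Fst lay between 0% and 0.714%, on 425 and 140 cells. By the exact interval a share of 0 allows up to 0.864% in the 425 quadriceps cells and 2.60% in the 140 diaphragm cells. Bambi differed from these genes: 0.855% of quadriceps FAPs and 2.44% of diaphragm FAPs had a UMI after thinning. The lymphoid shares were 1.41% (0.520% to 3.05%) and 3.57% (1.17% to 8.14%), from 6 and 5 cells. The FAP share of Bambi was thus no higher than the lymphoid share in either tissue. Whether the lymphoid Bambi UMIs were free RNA was not tested. Bmp2 in diaphragm was found in 3.08% of FAPs and in 2.14% of lymphoid cells (0.444% to 6.13%), the latter from 3 cells.

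Most FAPs held a UMI of some ligand, but few held many. At full depth 87.7% of quadriceps FAPs and 92.4% of diaphragm FAPs had at least 1 UMI of at least 1 of the 6 ligands, and 18.1% and 14.5% had UMIs of at least 3. The UMIs were uneven over cells: the 234 quadriceps FAPs with the most Gdf10, 1 in 10 of the cells, held 68.5% of its UMIs, and the figure for Bmp4 was 44.3%. In diaphragm these shares were 68.8% and 36.3% over 201 cells.

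The second comparison asked whether FAPs of the diaphragm and the quadriceps differed in these genes. Bmp4 and Bambi were called higher in diaphragm FAPs and Bmp5 and Chrdl1 higher in quadriceps FAPs, of 7 members that reached 20 CPM in one of the tissues. Of all 6460 genes past this limit, 2.96% were called higher in diaphragm and 3.13% higher in quadriceps, and the median log2 difference of all of them was -0.11.

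**Figure D2:**
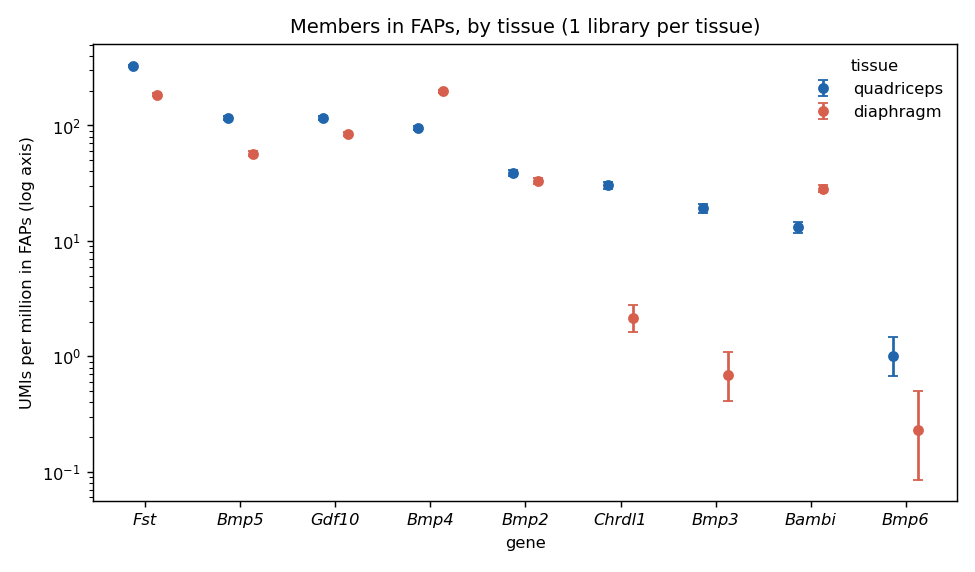
Level (CPM) in gated FAPs of quadriceps and diaphragm for the 9 members with any UMI, on a log axis. Points are summed values of 1 library each and bars are exact 95% Poisson intervals, which cover counting error only. Bmp4 and Bambi lay higher in diaphragm, Chrdl1 and Bmp3 were lower there by more than 10-fold, and Bmp2 differed least.

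Bmp4 in diaphragm FAPs was 2.09 times its quadriceps level (1.99 to 2.19), a log2 difference of 1.06. Bmp5 in quadriceps FAPs was 2.04 times its diaphragm level (1.92 to 2.17), with a log2 difference of -1.02. Bmp4 and Bmp5 therefore lay in opposite directions. Both values were close to the limit of 2-fold, and over 10 alternatives each was still called in 7, with log2 differences between 0.87 and 1.16 for Bmp4 and between -1.21 and -0.91 for Bmp5.

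Chrdl1 showed the larger difference. With 804 UMIs against 56, its level in quadriceps FAPs was 14.0 times that in diaphragm FAPs (10.7 to 18.7), and it was called in 10 of 10 alternatives. Bmp3, with 509 UMIs against 18, was 27.6 times higher in quadriceps (17.3 to 47.0), a log2 difference of -3.57 on levels under 20 CPM. Of the 509 UMIs 90.6% lay in the subcluster led by Dmkn, which had 7 diaphragm FAPs. Fst was 1.78 times higher in quadriceps (1.72 to 1.84), short of 2-fold, and Gdf10 was 1.38 times higher (1.31 to 1.46). Bmp2 was 1.17 times higher in quadriceps (1.07 to 1.28). Bmp6, with 27 UMIs against 6, was 4.4 times higher (1.78 to 13.03) and too sparse to be read further.

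Bambi was 2.15 times higher in diaphragm FAPs (1.89 to 2.45). B cell-like cells, with 38.8 CPM in diaphragm and 16.2 CPM in quadriceps, lay in the same direction, as did T cell-like cells. Of the 349 Bambi UMIs in quadriceps FAPs 70 came from 1 cell.

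The third comparison set the members against the kinds of FAP. The gated FAPs of both libraries were clustered again without the BMP pathway genes, and subclusters were named FBN1+ or LUM+ from the genes Fbn1, Mfap5, Pcolce2 and Loxl1 on one side and Lum, Apod, Smoc2, Col15a1 and Cxcl14 on the other. FBN1+ subclusters held 28.7% of quadriceps FAPs and 12.0% of diaphragm FAPs, and LUM+ subclusters 40.9% and 66.4%. Gdf10, Bmp5 and Fst were at least 2-fold higher on the LUM+ side in both tissues, out of 6 members at 20 CPM or more in the higher side of each tissue, where 2.49% of 6013 genes were called. No member was called higher on the FBN1+ side, a call made for 2.36% of genes. Bmp3 stood at 59.2 CPM in FBN1+ FAPs and 0.707 CPM in LUM+ FAPs of quadriceps. With 0 and 0.246 CPM in diaphragm it was under the limit there and could not be called. Genes other than the ones left out shaped the subclusters, and the levels are a description of them.

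**Figure D3:**
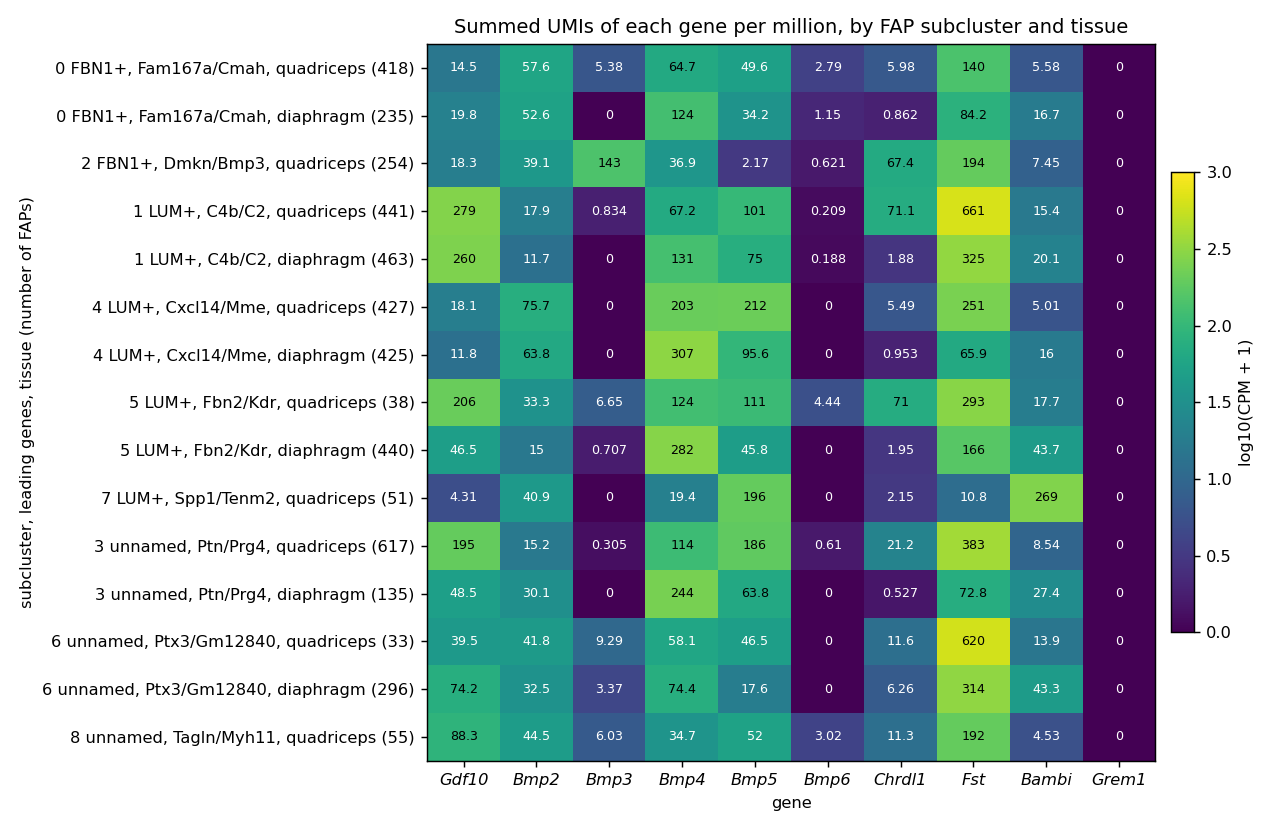
Level of each member (CPM) in FAP subclusters with at least 30 cells in a tissue. Rows give the subcluster number, its side, its 2 leading genes, the tissue and the number of FAPs, and the colour is log10(CPM + 1) with the CPM printed in each field. Gdf10 and Fst were highest in the subcluster led by C4b and C2, Bmp4 and Bmp5 in the one led by Cxcl14 and Mme, Bmp3 in the one led by Dmkn and Bmp3, and Bambi in the one led by Spp1 and Tenm2.

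Gdf10 had the largest difference between the sides among the 6 members at 20 CPM or more. In quadriceps it stood at 16.0 CPM in FBN1+ FAPs and 152 CPM in LUM+ FAPs, and in diaphragm at 19.3 CPM and 105 CPM. The log2 differences were -3.17 and -2.38, and both tissues kept the call in 8 of 8 alternatives. Bmp5 stood at 31.1 CPM and 153 CPM in quadriceps and at 33.3 CPM and 71.3 CPM in diaphragm. The summed FBN1+ levels of Bmp5 lay close together in the tissues and the LUM+ levels did not, while the FBN1+ side of quadriceps included a subcluster led by Dmkn with 2.17 CPM.

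Fst stood at 161 CPM in FBN1+ FAPs and 440 CPM in LUM+ FAPs of quadriceps, and at 91.1 CPM and 185 CPM in diaphragm. The diaphragm log2 difference of -1.02 was called in 1 of 8 alternatives, and it turned when subclusters were formed in another way: it was 0.33 without Scrublet calls and 0.11 with 20 principal components. In both of these settings a subcluster led by Ptx3, with 197 and 132 diaphragm FAPs, was named FBN1+. The subcluster led by Ptx3 was unnamed in the main clustering, and its part in the turn was not tested. Bmp4 was lower in FBN1+ FAPs in both tissues as well, at 53.9 CPM against 125 CPM and 124 CPM against 239 CPM, and missed the call in diaphragm with a log2 difference of -0.95. It was called in 5 of 8 alternatives in that tissue. Bmp2 was the ligand nearest to equal in quadriceps, 50.4 CPM against 44.1 CPM with a ratio of 1.14 (0.995 to 1.31), and was 1.74 times higher in FBN1+ FAPs of diaphragm (1.46 to 2.06).

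Within the sides each member had its own place. The LUM+ subcluster led by C4b and C2, with 441 quadriceps and 463 diaphragm FAPs, held 43.6% of the Gdf10 UMIs of quadriceps FAPs and 63.5% of those of diaphragm FAPs. Its Gdf10 level was 279 CPM (264 to 294) in quadriceps and 260 CPM (246 to 274) in diaphragm. Fst was highest in the same subcluster, at 661 CPM and 325 CPM. The unnamed subcluster led by Ptx3 and Has1 was close to it, at 620 CPM in 33 quadriceps FAPs and 314 CPM in 296 diaphragm FAPs. Chrdl1 stood at 71.1 CPM in the subcluster led by C4b in quadriceps, with 42.4% of the UMIs of quadriceps FAPs, against 1.88 CPM in diaphragm.

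The LUM+ subcluster led by Cxcl14 and Mme, with 427 and 425 FAPs, showed the reverse for Gdf10, at 18.1 CPM and 11.8 CPM. Here Bmp4 reached 203 CPM (189.7 to 217) in quadriceps and 307 CPM (292 to 322) in diaphragm, and Bmp5 212 CPM (198 to 226) and 95.6 CPM (87.5 to 104). Bmp2 was highest here too, at 75.7 CPM and 63.8 CPM. Among subclusters with at least 30 FAPs, Gdf10 was therefore highest in a different LUM+ subcluster from Bmp2, Bmp4 and Bmp5 in both tissues. Bmp5 was not low where Gdf10 was highest, with 101 CPM and 75.05 CPM in the subcluster led by C4b. In the unnamed subcluster led by Ptn and Prg4, Gdf10 and Bmp5 stood at 195 and 186 CPM in quadriceps. In diaphragm they stood at 48.5 and 63.8 CPM there.

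Bmp3 was the member most held to one place. The FBN1+ subcluster led by Dmkn, with 254 quadriceps FAPs and 7 diaphragm FAPs, had 143 CPM (130.3 to 157) in quadriceps and held 90.6% of all Bmp3 UMIs of quadriceps FAPs in 10.9% of the cells. The 7 diaphragm FAPs had no UMI, which allows up to 41.7 CPM. Over the 6 subclusters with at least 30 FAPs in both tissues, weighted equally, Bmp3 stood at 3.74 CPM in quadriceps and 0.680 CPM in diaphragm. Next to Bmp3, Chrdl1 stood at 67.4 CPM in the quadriceps FAPs of the subcluster led by Dmkn, while Bmp5 was at 2.17 CPM. Bambi was concentrated in a different small group: the subcluster led by Spp1 and Tenm2, 51 quadriceps FAPs, had 269 CPM (224 to 321) and held 35.8% of the Bambi UMIs of quadriceps FAPs. Of those 349 UMIs, 70 came from 1 cell. Whether that cell lay in the subcluster led by Spp1 was not examined, so its Bambi level may rest in part on 1 cell. In this group Bmp5 stood at 196 CPM and Fst at 10.8 CPM, lower than in any other subcluster with at least 30 cells.

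Because the subclusters were unequally shared between the tissues, the tissue comparison was repeated within each of the 6 subclusters that had at least 30 FAPs in both. Bmp4 was higher in diaphragm in 6 of 6, with an interval above 1 in 5, and the log2 difference ranged from 0.35 to 1.17. Bmp5 was lower in diaphragm in 6 of 6, with the interval below 1 in all 6, from -1.52 to -0.42. Both directions were thus seen inside every subcluster compared.

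**Figure D4:**
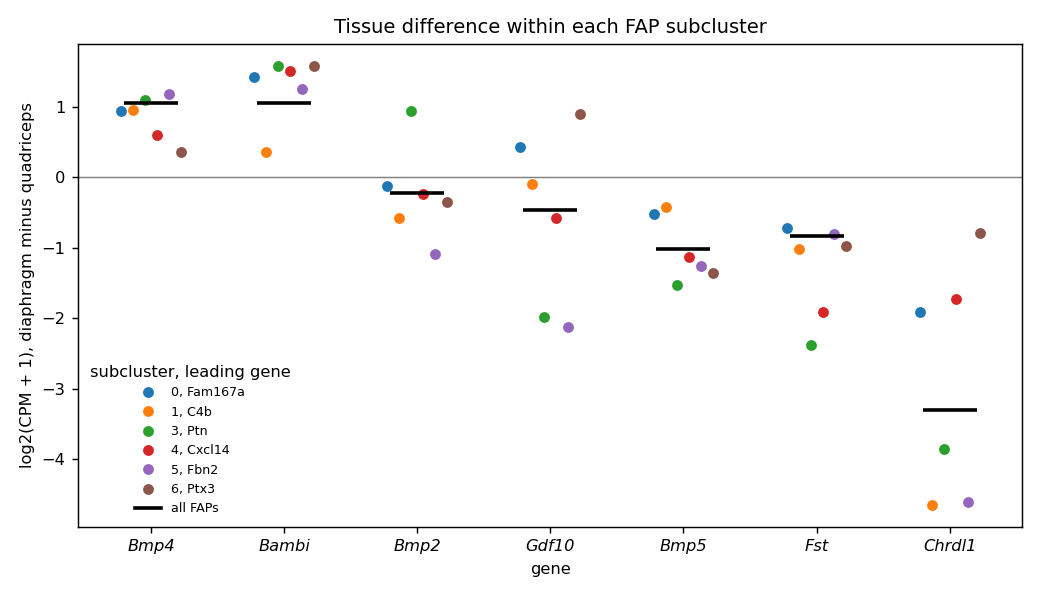
Difference in log2(CPM + 1) between diaphragm and quadriceps FAPs for 7 members within each of 6 subclusters. Points are subclusters, named by number and leading gene, black bars are all gated FAPs, and values above 0 are higher in diaphragm. Bmp4 and Bambi lay above 0 and Bmp5, Fst and Chrdl1 below 0 in all 6 subclusters, while Gdf10 and Bmp2 lay on both sides.

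Fst was lower in diaphragm in 6 of 6 subclusters, with intervals below 1 in all 6, from -2.38 in the subcluster led by Ptn and Prg4 to -0.72 in the FBN1+ subcluster led by Fam167a. With the 6 subclusters weighted equally, Fst stood at 391 CPM in quadriceps and 171 CPM in diaphragm, and its log2 difference of -1.19 was past 2-fold, in contrast to -0.83 over all FAPs. Chrdl1 was lower in diaphragm in 6 of 6 subclusters, with intervals below 1 in 5, from -4.65 to -0.80. The smallest difference was in the subcluster led by Ptx3 and Has1, with 5 UMIs in quadriceps. Bambi was higher in diaphragm in 6 of 6, with an interval above 1 in 5.

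Gdf10 did not share one direction. In the subcluster led by C4b it was 279 CPM and 260 CPM, with a diaphragm-to-quadriceps ratio of 0.931 (0.863 to 1.004). In the subcluster led by Ptn it was 195 CPM in quadriceps and 48.5 CPM in diaphragm, and in the one led by Fbn2 and Kdr 206 CPM and 46.5 CPM. In the subcluster led by Ptx3 it was higher in diaphragm, 74.2 CPM against 39.5 CPM, the latter from 17 UMIs. The Gdf10 differences within subclusters were therefore unlike, and the subclusters were also unequally shared between the tissues. The subcluster led by Ptn held 26.4% of quadriceps FAPs and 6.72% of diaphragm FAPs. With the 6 subclusters weighted equally the Gdf10 log2 difference was -0.70, against -0.46 over all FAPs. Fos, Junb and Egr1 were also higher in diaphragm in 6 of 6 subclusters, Fos by 2.44 to 5.49 on the log2 scale, and their part in these differences was not tested.

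Over single FAPs the abundant members were only loosely related. Gdf10 and Fst had the highest correlation of log-scaled UMIs, with r of 0.35 over 2339 quadriceps FAPs and 0.26 over 2010 diaphragm FAPs, falling to 0.12 and 0.06 after thinning to 1000 UMIs. Bmp4 and Fst had r of -0.22 and -0.24, and -0.05 and -0.08 after thinning. The cells of a tissue share 1 library, and such low values in sparse counts are no finding.

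Among 8203 genes found in enough FAPs, those with patterns most like a member over single FAPs of both tissues were led by Srpx, Cst3 and Tmem176b for Gdf10, with r of 0.41, 0.39 and 0.39 in the tissue where it was lower. For Bmp4 they were Smoc2, Crispld2 and Hsd11b1, with 0.37, 0.31 and 0.30, and for Fst they were Penk, Sfrp1 and Maf, with 0.32, 0.32 and 0.29. Bmp5 was nearest to Cst3 with 0.25 and Bmp2 to Ret with 0.20. After thinning these values were at most 0.21.

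The rest of the pathway was read from a list of 72 genes that includes the 10 members, of which 34 reached 20 CPM in FAPs of the higher tissue. Among these 34, 4 were called higher in diaphragm and 3 higher in quadriceps, and the median log2 difference was -0.18. Of all 6460 genes past the same limit, 2.96% were called higher in diaphragm and 3.13% higher in quadriceps. The calls in the list include the 4 members given above. Its other called genes were Inhbb and Id3 in diaphragm and Acvr2a in quadriceps.

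**Figure D5:**
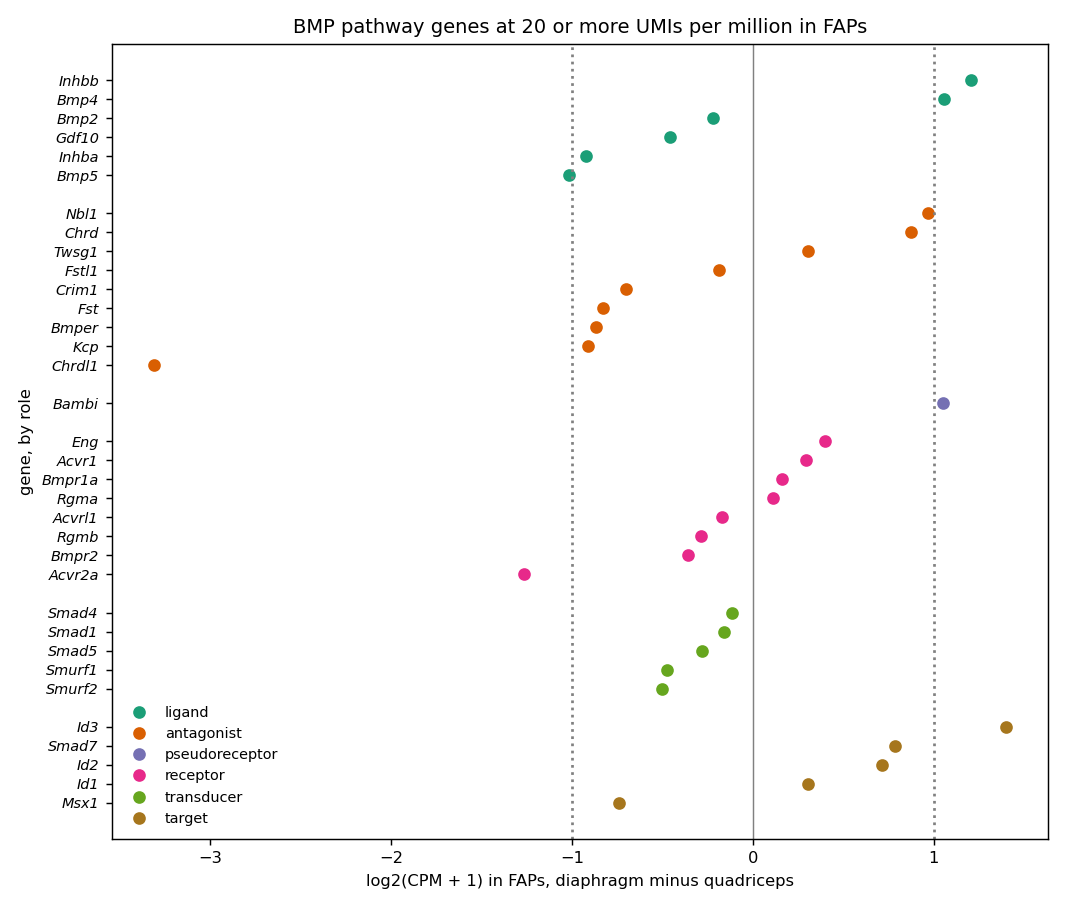
Difference in log2(CPM + 1) between diaphragm and quadriceps FAPs for the 34 pathway genes that reached 20 CPM in one of the tissues. Points are genes ordered within their role, and dotted lines mark a 2-fold difference. Chrdl1 lay far below the other genes at -3.31, the receptors other than Acvr2a and the transducers lay within 2-fold, and Id3 was the highest at 1.40.

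Of 21 ligands 6 passed the limit, and Inhbb, which encodes an activin subunit, stood at 16.2 CPM in quadriceps FAPs and 38.5 CPM in diaphragm FAPs, 2.38 times higher (2.13 to 2.67). Among 20 antagonists 9 passed and Chrdl1 alone was called. The most abundant were Fstl1, at 1606 CPM and 1410 CPM, and Nbl1, an antagonist of the DAN family, at 607 CPM and 1187 CPM with a log2 difference of 0.96. Twsg1, a binding partner of chordin, stood at 121 CPM and 149 CPM. The median log2 difference of the 9 antagonists was -0.70, with Nbl1, Chrd and Twsg1 on the diaphragm side and the other 6 on the quadriceps side.

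Receptors were nearer to equal. Bmpr1a, a type I receptor, stood at 96.8 CPM and 108 CPM, Bmpr2, the type II receptor of BMPs, at 139 CPM and 108 CPM, and the co-receptors Eng and Rgma at 88.0 and 116 CPM and at 87.6 and 94.5 CPM. Acvr2a, a type II receptor for activins and BMPs, was 2.46 times higher in quadriceps FAPs (2.25 to 2.70), at 60.7 CPM against 24.6 CPM. It was the single receptor called among 8 that passed. All 5 transducers that passed lay within 2-fold, with Smad1, Smad5 and Smad4 at log2 differences of -0.16, -0.28 and -0.11 and the ubiquitin ligase Smurf2 at -0.50.

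Of the 5 target genes that passed, 4 had higher levels in diaphragm FAPs and 1 was called, with a median log2 difference of 0.71. Id3, an inhibitor of differentiation that BMP signalling induces, stood at 243 CPM (237 to 249) in quadriceps FAPs and 641 CPM (632 to 651) in diaphragm FAPs, 2.64 times higher (2.57 to 2.72). Id2 stood at 77.4 CPM and 127 CPM and the inhibitory SMAD Smad7 at 29.2 CPM and 51.0 CPM, while Msx1 stood at 74.6 CPM and 44.2 CPM. Id3 and Smad7 were higher in diaphragm in 6 of 6 subclusters with all 6 intervals above 1. The immediate early genes given above were higher in diaphragm as well, and their part in these values was not tested.

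Bmp7, another ligand, was chosen after its values were seen. Over all FAPs it stood at 16.9 CPM in quadriceps and 15.9 CPM in diaphragm, with a ratio of 0.939 (0.819 to 1.08). Inside the 6 shared subclusters it was higher in diaphragm in 6 of 6, with intervals above 1 in all 6, on levels from 0 to 14.9 CPM in quadriceps. The difference between the readings lay in the subcluster led by Dmkn, with 254 quadriceps FAPs at 92.8 CPM, and in the one led by Spp1, with 51 at 110 CPM, both of which had fewer than 30 diaphragm FAPs.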

How the data were processed

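The deposited files hold raw UMI counts for each gene in each barcode that had been kept as a cell. Per the labels, Cell Ranger 3.0.0 and the mm10 build were used by the authors. Seurat is also named there, but no normalised values were used here. Whether antisense reads were kept apart is not given in the sources used here. The quadriceps and diaphragm libraries, 1 per tissue, were the groups. The members and the gene lists were chosen with earlier results of these data known.

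FAPs were all barcodes with at least 1 UMI of Pdgfra and 50 UMIs of Dcn. For classes, barcodes with at least 1000 UMIs of both libraries were clustered together with scanpy 1.11.5 (10000 per cell, log scale, 2000 variable genes without BMP and mitochondrial genes, 20 principal components, 20 neighbours, Leiden resolution 1). No mitochondrial limit was set, since 5% takes out whole classes. Clusters were called "-like" from marker lists when at least 3 markers were seen, and clusters outside these rules stayed unnamed. Gated barcodes counted as FAPs and the rest took the class of their cluster. FAPs were clustered again over 10 principal components at resolution 0.5, with each gene scaled within its library and without 72 BMP genes and 9 naming genes.

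CPM were computed from summed UMIs, with exact Poisson intervals, and ratios had exact conditional binomial intervals. Log2 differences used a pseudocount of 1 CPM, and calls needed a difference of 1 and 20 CPM. UMIs are counted per molecule from the 3′ end and are not scaled by gene length. Shares were taken from cells thinned to 1000 UMIs, with exact binomial (Clopper-Pearson) intervals. Correlations were limited to genes that 10% or more of the FAPs of each tissue had a UMI of, and like genes were named at an r of at least 0.2. Pathway genes were named when among the 4 highest of their role or when called, and the others are named as chosen after their values were seen. Scrublet marked 103 quadriceps barcodes and 3 diaphragm barcodes (0.120%) as doublets, too few in diaphragm to be relied on, and they were left out only as an alternative. The fold step was tested on simulated data. Gene positions are from GENCODE M21, and promoter windows were matched by symbol for 5 of the 9 members looked up. Alternatives are in the closing section.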

Additional observations from a re-analysis of the deposited data

Results flagged for a closer look

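The values here stood out because cells that belong to none of the named classes, and that entered the comparisons only within the sum of all other cells, held more of a ligand than FAPs of the same tissue, with the lower bound of the counting interval above the FAP level. Bmp2 reached 312 CPM (222 to 426) in 12 diaphragm cells of the cluster led by Ptx3 and Has1 that missed the FAP gate, against 33.1 CPM in FAPs, on 39 UMIs. Bmp5 reached 336 CPM (231 to 471) in 52 quadriceps cells of a cluster of low depth led by Gm26917, against 116 CPM in FAPs, on 33 UMIs. Bmp4 reached 285 CPM (214 to 372) in 22 diaphragm cells of the cluster led by Slit2 and Kdr, against 197 CPM in FAPs, on 54 UMIs. In the clusters led by Ptx3, Gm26917 and Slit2 all 8 FAP markers were seen. Of the cells of the clusters led by Ptx3 and by Slit2, 142 of 154 and 503 of 525 were gated FAPs. The cells given here are thus the remainder of clusters made up mostly of FAPs, except in the cluster led by Gm26917, where 10 of 105 were gated. Bmp2 stood at 61.5 CPM (43.9 to 83.7) in 128 quadriceps cells of a cluster with both FAP and smooth muscle markers and a median of 57.5% mitochondrial UMIs, against 38.8 CPM in FAPs. It stood at 48.1 CPM (41.3 to 55.6) in 302 quadriceps cells of a cluster led by Timp4 and Npnt in which all 7 smooth muscle markers were seen. The groups were read after clustering and rest on 1 library each.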

How the results depend on the processing

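No paired analysis was possible because each tissue had 1 library and the labels give no replicate numbers. The 4 members called between tissues became 2 with a pseudocount of 5 CPM (Bmp4 and Chrdl1) and 2 with cells of FAP-like clusters in place of the gate (Bmp3 and Chrdl1), and the other 8 alternatives gave 3 to 5. The 4 members called higher in FAPs became 2 with at most 5% mitochondrial UMIs (Gdf10 and Bmp5) and 1 with cells of FAP-like clusters (Gdf10). These clusters held 1373 of the 2010 gated diaphragm FAPs, so the other FAPs then stood among the other cells. The 3 members called between FBN1+ and LUM+ FAPs became 1 with a pseudocount of 5 CPM (Gdf10). Gdf10 and Bmp5 were called in the other 7 alternatives, while Bmp4 took the place of Fst in 5 of them. Folds past the limits in the main values reversed in 4 cases: Fst between FBN1+ and LUM+ FAPs of diaphragm, at 0.33 without Scrublet calls and 0.11 with 20 principal components, and, with cells of FAP-like clusters, Bmp2 and Bmp4 in FAPs over other cells of diaphragm, at 0.26 and -0.15. Folds under the limits turned as well, such as Bmp2 in FAPs over other cells of quadriceps, which kept its sign in 5 of 8. Apart from the changed set of cells the cause was not tested. The 3 alternatives chosen after seeing the data were these: leaving out the subcluster led by smooth muscle genes, equal weights for subclusters, each of which gave 4 members between tissues (with equal weights Fst, at -1.19, in place of Bmp4, at 0.87), and named classes alone as other cells, which gave 4 in FAPs. With 1 library per tissue, differences between animals cannot be told apart from differences between tissues.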
